A study of Mus musculus with 15 samples.

Results

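Igf2, H19 and 8 other imprinted genes that act on fetal growth were followed in the livers of Stab1-/- and wildtype mice before and after birth. The 10 genes, Igf2, H19, Dlk1, Meg3, Peg3, Plagl1, Cdkn1c, Grb10, Mest and Igf2r, were taken by symbol from a table of 19464 rows, keeping the row with most reads for each symbol. The set was selected on the 2-week difference of Igf2 and H19 between the genotypes and on its absence in the fetus, and the others were added as imprinted growth genes, so the values of the 10 genes at 2 weeks and in the difference between ages, and those of Igf2 and H19 at E17.5, are given as a description. Counts of calls in these contrasts are printed beside the share over all genes, and nothing is read from them. For the other 8 genes p-values are printed at E17.5 and for the change with age in each genotype.

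The Stab1-/- mice lack Clever-1, the scavenger and adhesion receptor encoded by Stab1, from all cells. Both genotypes were on a mixed C57BL/6N and 129SvJ background, and whether the wildtype mice were littermates was not stated. Whole liver was sequenced from Stab1-/- (n = 4) and wildtype (n = 4) mice that were 2 weeks old and from Stab1-/- (n = 3) and wildtype (n = 4) fetuses at E17.5, giving 15 libraries. In whole liver, fewer cells of a type and less RNA per cell cannot be told apart. The question put to the data was whether the postnatal decline of these genes ran further in Stab1-/- liver across the whole group or only at Igf2 and H19.

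Imprinted genes are transcribed mainly from the maternal or mainly from the paternal chromosome, as set by DNA methylation laid down in the germ line. Many of those transcribed from the paternal copy promote fetal growth, and many of those transcribed from the maternal copy restrain it. In the liver most of them are highly transcribed before birth and decline as growth slows after birth.

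The genes lie in a few shared domains. On GRCm38 with the GENCODE vM21 annotation, Igf2 (chr7:142650766-142666816) and the long non-coding RNA H19 (chr7:142575529-142578143) are neighbours on the minus strand of chromosome 7, where an imprinting control region and shared enhancers serve both. Cdkn1c (chr7:143458339-143461050) is in the adjoining domain, and Peg3 (chr7:6703892-6730431) is at the other end of the same chromosome. Dlk1 (chr12:109452823-109463336) and the long non-coding RNA Meg3 (chr12:109541001-109571726) form a similar pair on chromosome 12. Mest (chr6:30723547-30748465), Plagl1 (chr10:13060504-13131694), Grb10 (chr11:11930508-12038683) and Igf2r (chr17:12682406-12769664) are each in a domain of their own. The deposited table gives Entrez identifiers and gene lengths and no coordinates, so these positions were looked up by symbol.

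H19 is also the precursor of a microRNA. The RefSeq mature sequences of its arms lie inside H19, at chr7:142577112-142577133 for the 5p arm and chr7:142577078-142577099 for the 3p arm of GRCm38.p6, minus strand. They are shown because a change in H19 is a change in their precursor, and the capitals mark the seed, bases 2 to 8.
mmu-miR-675-5p: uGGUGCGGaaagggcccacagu
mmu-miR-675-3p: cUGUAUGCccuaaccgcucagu
The arms have different seeds, and neither mature form was measured here.

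RefSeq start sites were available for 8 of the 10 genes, in 15 windows of the 250 bases before a start. H19 and Cdkn1c had no entry. The windows ranged from 0 to 40 CG pairs, against a median of 6 over the 32851 windows of the table, and the window richest in CG pairs belonged to Grb10. The GC-box letters GGGCGG, searched on both strands, stood in 8 of the 15 windows and in 32.7% of all windows. Those 8 windows belonged to 5 genes and were not all distinct. The Mest windows chr6:30737800-30738049 and chr6:30737803-30738052 overlap and both count. The TATA-box letters TATAAA, searched on both strands, stood in 1 of the 15 and in 12.4% of all windows. These matches describe the letters only.

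The windows with most matches are printed for Igf2, the gene of the 10 that differed most between the genotypes, and for Meg3, which holds the only TATA-box letters, with the matches in capitals. The first is the window before the Igf2 start nearest the 3′ end of the gene, chr7:142657497-142657746 on the minus strand, and the second the window before Meg3, chr12:109540746-109540995 on the plus strand.
Igf2: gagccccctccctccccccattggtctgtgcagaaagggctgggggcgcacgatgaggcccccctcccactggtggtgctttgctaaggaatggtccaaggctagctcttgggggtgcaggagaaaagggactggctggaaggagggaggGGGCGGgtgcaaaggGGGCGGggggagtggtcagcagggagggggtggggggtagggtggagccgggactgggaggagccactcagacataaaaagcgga
Meg3: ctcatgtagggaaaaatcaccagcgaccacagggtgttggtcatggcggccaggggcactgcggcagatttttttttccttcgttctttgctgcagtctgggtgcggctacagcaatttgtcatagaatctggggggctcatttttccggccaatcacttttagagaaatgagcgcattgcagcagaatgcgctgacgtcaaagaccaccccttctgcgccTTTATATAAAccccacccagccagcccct
In the Meg3 window the capitals hold TATAAA and, overlapping it, its reverse complement TTTATA.

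The libraries held 9.66 to 10.96 reads on genes, in units of 1000000. Stab1 itself was between 0.862 and 1.54 RPKM, reads per kilobase of gene and per 1000000 reads on genes, in 2-week Stab1-/- liver and between 7.30 and 11.0 RPKM in 2-week wildtype liver. At E17.5 it was between 3.60 and 5.23 RPKM in Stab1-/- and between 14.9 and 21.8 RPKM in wildtype liver, so reads on Stab1 remained in all knockout libraries. The summed level of 8 hepatocyte markers was at least 48212 RPKM in every library. Wildtype E17.5 replicate 1 carried muscle transcripts, with a summed level of 114 RPKM over 8 muscle markers, and replicate 2 carried pancreas transcripts, with 2632 RPKM over 7 markers. Pancreas markers also summed to 258, 86.1 and 75.9 RPKM in wildtype E17.5 replicates 3 and 1 and Stab1-/- E17.5 replicate 3, against 11.8 to 13.5 RPKM in the other fetal libraries. Stab1-/- E17.5 replicate 1 stood apart in 6 biliary and progenitor markers, at 107 RPKM against 26.0 to 58.3 RPKM, and in the stellate and mesenchymal markers, at 276 RPKM against 129 to 220 RPKM. Counts of calls among the 10 genes that rest on these libraries are also given without them where they moved.

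In the fetus the 10 genes stood at similar levels in both genotypes. H19, which restrains growth, was the most abundant, ahead of Igf2, the fetal insulin-like growth factor. Per gene length the order after these was the same in both genotypes: Grb10, Cdkn1c, Dlk1, Mest, Meg3, Peg3, Igf2r and Plagl1. The ranges over libraries overlapped between Cdkn1c and Dlk1, between Mest and Meg3, and between Igf2r and Plagl1 in both genotypes, so those neighbours were not separated.

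**Figure D1:**
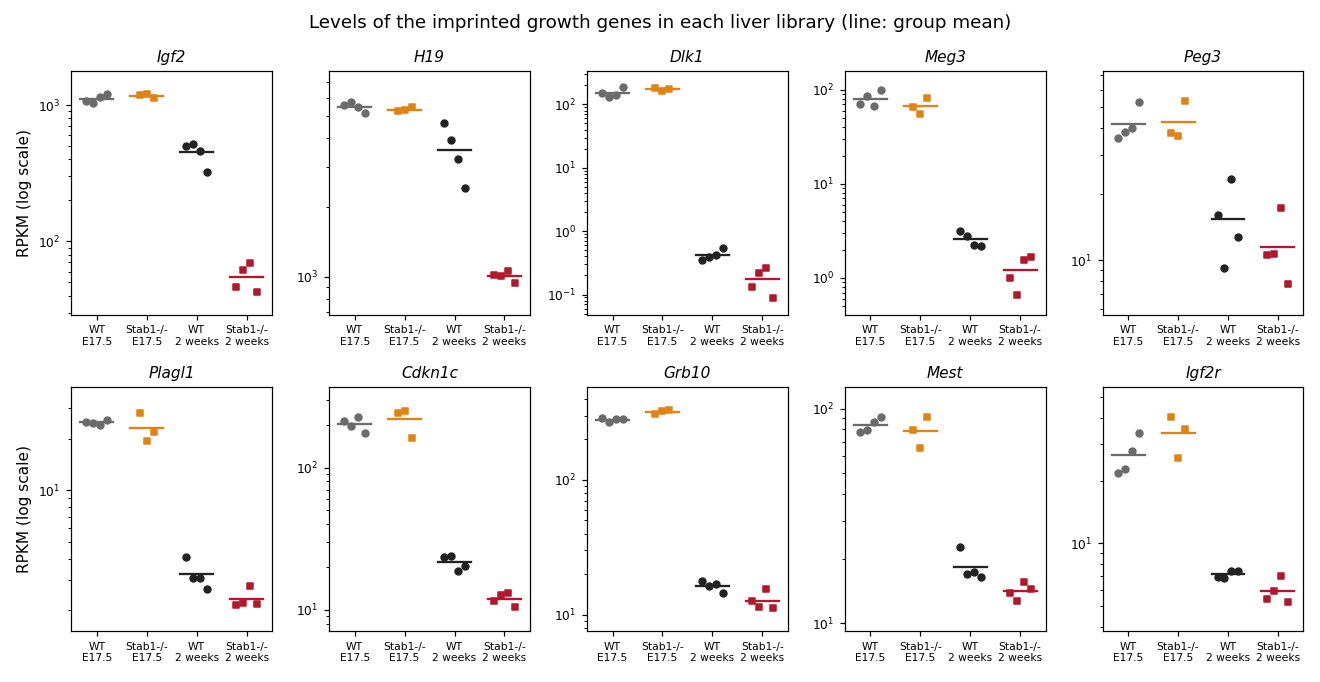
RPKM (log scale) of each of the 10 genes in every library, with 1 panel per gene and 1 point per library: circles for wildtype (WT), squares for Stab1-/-, lines for group means. At 2 weeks the Stab1-/- libraries lay below all wildtype libraries for Igf2, H19, Dlk1, Meg3, Cdkn1c and Mest, and the fetal libraries of both genotypes lay above all 2-week libraries for every gene.

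Igf2 at E17.5 was 1181, 1209 and 1129 RPKM in Stab1-/- liver and 1068, 1030, 1148 and 1203 RPKM in wildtype liver. At 2 weeks it was 501, 514, 463 and 323 RPKM in wildtype liver and 46.2, 61.6, 69.1 and 42.7 RPKM in Stab1-/- liver. The fetal ranges overlapped, whereas at 2 weeks every Stab1-/- library was far below the lowest wildtype library. The 2-week mean of Stab1-/- liver was 12.2% of the wildtype mean, a log2 fold change of -3.12 (SE 0.18). Igf2 had 1680 to 2697 reads in each library of that group, so the low level was still well measured.

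H19 at E17.5 was 5236, 5290 and 5449 RPKM in Stab1-/- liver and 5563, 5736, 5482 and 5133 RPKM in wildtype liver. At 2 weeks it was 4650, 3943, 3247 and 2418 RPKM in wildtype liver and 1014, 1012, 1059 and 935 RPKM in Stab1-/- liver. The 4 Stab1-/- libraries were close together and below all wildtype libraries, which spread over a wide range. Their mean was 28.2% of the wildtype mean, a log2 fold change of -1.91 (SE 0.17).

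H19 and Igf2 did not fall in proportion. The ratio of H19 to Igf2 in RPKM was 4.96 ± 0.562 (SD, n = 4) in wildtype and 4.54 ± 0.250 (SD, n = 3) in Stab1-/- fetal liver. In 2-week wildtype liver it was 7.87 ± 0.987 (SD, n = 4), and all 4 ratios, from 7.02 upwards, were above those of the wildtype fetuses, 4.27 to 5.57, or 4.27 to 4.77 without replicates 1 and 2. These ratios are a description, since both genes were chosen on contrasts that use the same libraries. In 2-week Stab1-/- liver it was 18.9 ± 3.52 (SD, n = 4), with a lowest value of 15.3 against a highest of 9.29 in 2-week wildtype liver. Both genes thus kept less of their level in Stab1-/- liver, and Igf2 kept the smaller share.

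**Figure D2:**
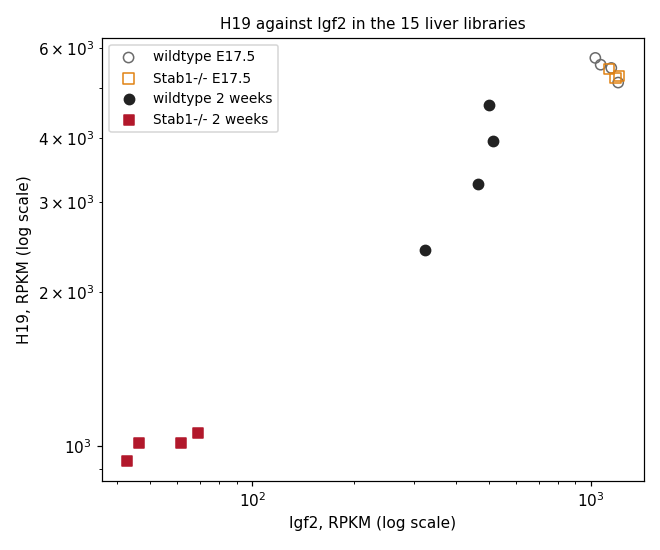
H19 against Igf2 in RPKM (both axes log scale) in the 15 libraries, with open symbols for E17.5, filled symbols for 2 weeks, circles for wildtype and squares for Stab1-/-. The 7 fetal libraries shared the upper right corner, the 2-week wildtype libraries ran from 323 to 514 RPKM of Igf2, and the 2-week Stab1-/- libraries lay apart at 42.7 to 69.1 RPKM.

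Among all genes ranked by RPKM, H19 was between the 6th and the 8th at E17.5. It took ranks 10 to 16 in 2-week wildtype liver and 47 to 59 in 2-week Stab1-/- liver. Igf2 took ranks 29 to 44 at E17.5, 113 to 179 in 2-week wildtype and 975 to 1476 in 2-week Stab1-/- liver. Even so, Igf2 and H19 together made up between 93.9% and 98.2% of the summed RPKM of the 10 genes in every 2-week library, against 86.7% to 88.9% at E17.5.

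The other pair of a coding gene and a non-coding RNA, Dlk1 and Meg3, nearly disappeared after birth in both genotypes. Dlk1 encodes a membrane protein of the Delta family found on fetal hepatoblasts. At E17.5 it was 182, 161 and 174 RPKM in Stab1-/- and 152, 131, 142 and 185 RPKM in wildtype liver. At 2 weeks it was 0.347, 0.388, 0.423 and 0.541 RPKM in wildtype and 0.130, 0.222, 0.266 and 0.0878 RPKM in Stab1-/- liver. These 2-week values rest on 17 to 27 reads per wildtype library and 4 to 12 reads per Stab1-/- library, and Dlk1 entered the 2-week fit through the wildtype group alone. The groups did not overlap and the log2 fold change was -1.35 (SE 0.33). Counting error is a large part of these values, and between 40.6% and 47.4% of the listed Dlk1 gene model was covered by reads even at E17.5.

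Meg3, the maternally transcribed non-coding RNA of the Dlk1 domain, was 64.9, 55.0 and 82.4 RPKM in Stab1-/- and 69.9, 84.8, 66.4 and 99.0 RPKM in wildtype fetal liver. The 2-week levels were 3.19, 2.76, 2.23 and 2.20 RPKM in wildtype and 0.993, 0.653, 1.57 and 1.68 RPKM in Stab1-/- liver. The highest Stab1-/- library remained below the lowest wildtype library, with a log2 fold change of -1.17 (SE 0.25). Rian, a non-coding RNA further along the same domain and not among the 10 genes, was 4.05, 3.77, 2.94 and 3.09 RPKM in wildtype and 2.15, 1.24, 1.96 and 2.41 RPKM in Stab1-/- liver at 2 weeks. Rian was lower in Stab1-/- liver with a log2 fold change of -0.92 (SE 0.19) and an adjusted p of 0.0297 in edgeR's quasi-likelihood test. That call was lost in 7 of 18 alternatives, among them scaling by library totals (adjusted p = 0.0539) and leaving out any of 4 single libraries, with an adjusted p of up to 0.0791.

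Cdkn1c, which encodes the cyclin-dependent kinase inhibitor p57, was the member outside these pairs with the clearest separation. It was 241, 252 and 162 RPKM in Stab1-/- and 212, 195, 226 and 175 RPKM in wildtype fetal liver. The 2-week values were 23.5, 23.9, 18.9 and 20.3 RPKM in wildtype and 11.5, 12.7, 13.2 and 10.4 RPKM in Stab1-/- liver. The Stab1-/- libraries were close together and all lower, at 55.3% of the wildtype mean and a log2 fold change of -0.94 (SE 0.10).

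Grb10 encodes an adaptor that dampens insulin and IGF receptor signalling, and Igf2r encodes the receptor that clears IGF2 into lysosomes. Grb10 at 2 weeks was 17.9, 16.2, 16.8 and 14.4 RPKM in wildtype and 12.6, 11.5, 15.4 and 11.2 RPKM in Stab1-/- liver. Igf2r at 2 weeks was 6.94, 6.85, 7.34 and 7.41 RPKM in wildtype and 5.42, 5.92, 6.97 and 5.27 RPKM in Stab1-/- liver. For each of these, Stab1-/- replicate 3 fell within the wildtype range and the other 3 Stab1-/- libraries below it. The log2 fold changes were -0.46 (SE 0.11) for Grb10 and -0.37 (SE 0.11) for Igf2r.

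Plagl1, a zinc finger transcription factor that acts on other imprinted genes, was 4.09, 3.08, 3.10 and 2.65 RPKM in wildtype and 2.15, 2.20, 2.77 and 2.18 RPKM in Stab1-/- liver at 2 weeks. Its log2 fold change was -0.56 (SE 0.14), and replicate 3 was again the Stab1-/- library that reached the wildtype range. Mest, which encodes an enzyme of the alpha/beta-hydrolase fold, was 22.6, 17, 17.4 and 16.5 RPKM in wildtype and 13.8, 12.7, 15.6 and 14.5 RPKM in Stab1-/- liver. The Mest groups did not overlap, with a log2 fold change of -0.47 (SE 0.12). Peg3, another zinc finger protein, ranged widely among replicates, from 9.21 to 23.4 RPKM in wildtype and from 7.74 to 17.2 RPKM in Stab1-/- liver, and its log2 fold change of -0.52 had an SE of 0.27.

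Across the group, the 2-week log2 fold changes of all 10 genes were under 0, with a median of -0.75, whereas 52.0% of the 12716 genes tested were under 0, with a median of -0.01. Of the 10 genes, 5 were called lower in Stab1-/- liver (Igf2, H19, Cdkn1c, Meg3 and Grb10), where 1.74% of all genes tested were called lower. This contrast was used to choose Igf2 and H19, so nothing is read from that count. The count was 3 without Stab1-/- replicate 1, wildtype replicate 1 or wildtype replicate 3. Calls over all genes, in either direction, were 116, 299 and 152 in those fits, against 340 as reported. In DESeq2 the count was 9, where 441 of the 17882 genes tested were called lower. On the RPKM scale the Stab1-/- libraries lay below every wildtype library for 6 of the 10 genes, against 4.50% of all genes tested. After TMM scaling, which corrects for differences in RNA composition between libraries, they did so for 9 of 10, all but Peg3, against 6.36% of all genes. Both counts include Igf2 and H19, chosen on this contrast, and Dlk1, which entered the fit through the wildtype group alone. Nothing is read from them either.

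**Figure D3:**
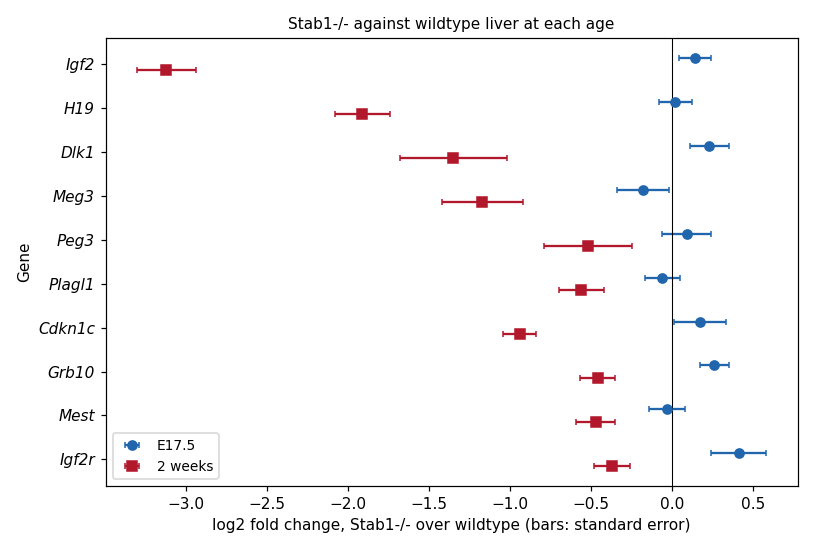
log2 fold change of Stab1-/- over wildtype liver for the 10 genes, with circles for E17.5, squares for 2 weeks and bars for the standard error. All 2-week values lay under 0, from -3.12 for Igf2 to -0.37 for Igf2r, and the E17.5 values lay between -0.18 and 0.41.

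The libraries within a group also differed in a shared way. Among the 2-week Stab1-/- libraries, replicate 3 had the highest RPKM for 9 of the 10 genes and replicate 4 the lowest for 7. Among the 2-week wildtype libraries, replicate 4 had the lowest RPKM for 6, including Igf2 and H19. Replicate 4 of the wildtype group also had the lowest level of Afp, the alpha-fetoprotein of fetal hepatocytes, at 35.8 RPKM against 134, 141 and 137 RPKM in the other wildtype libraries. Without that library the 2-week log2 fold changes were -3.24 for Igf2 and -2.04 for H19.

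Markers of the main liver cell types were checked beside these differences. The summed level of 8 hepatocyte markers was 56313 to 72005 RPKM in Stab1-/- and 72586 to 92730 RPKM in wildtype liver, so those ranges did not overlap, and none of the 8 was at 0 or passed the test. The summed level of 8 stellate and mesenchymal markers was 253 to 260 RPKM in Stab1-/- and 264 to 318 RPKM in wildtype liver. None of these markers was at 0, and Col1a2, Col3a1 and Col1a1, genes of fibrillar collagen, were called lower with log2 fold changes of -0.97, -0.75 and -1.03. Of all genes tested, 1.74% were called lower. The call was lost in 4 of 18 alternatives for Col3a1, in 2 of 18 for Col1a1 and in none for Col1a2. Of 8 endothelial markers, none of them at 0, Kdr alone was called lower. That call was lost in 12 of 18 alternatives. These included 7 of the 8 fits that left out a library, with an edgeR adjusted p of up to 0.143. The summed level of the endothelial markers was 141 to 156 RPKM in Stab1-/- and 138 to 166 RPKM in wildtype liver. The part of these cell types in the differences of the imprinted genes was not tested.

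At E17.5 none of the 10 genes was called in either direction, where 0.366% of the 13388 genes tested were called and 12.9% had an unadjusted p under 0.05. Igf2 (log2 fold change 0.14, SE 0.10) and H19 (0.02, SE 0.10) are given as a description. Among the other 8, Igf2r and Grb10 had the smallest p. Igf2r was 40.5, 25.7 and 35.4 RPKM in Stab1-/- and 21.7, 22.7, 27.7 and 33.7 RPKM in wildtype liver (log2 fold change 0.41, SE 0.17, edgeR unadjusted p = 0.0321, adjusted p = 0.348). Grb10 was 310, 322 and 330 RPKM in Stab1-/- and 287, 269, 282 and 283 RPKM in wildtype liver (log2 fold change 0.26, SE 0.09, edgeR unadjusted p = 0.0162, adjusted p = 0.288). Grb10 was the only gene of the 10 whose Stab1-/- libraries lay above every wildtype library, as 2.91% of all genes did. DESeq2 was the only one of the 17 alternatives that called a member, Grb10, with an adjusted p of 0.0246.

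The remaining 6 genes had smaller differences in the fetus. Dlk1 had a log2 fold change of 0.23 (SE 0.12), Cdkn1c of 0.17 (SE 0.16), Peg3 of 0.09 (SE 0.15), Mest of -0.03 (SE 0.11), Plagl1 of -0.06 (SE 0.11) and Meg3 of -0.18 (SE 0.16). Their adjusted p in edgeR was at least 0.427. No member was called without wildtype E17.5 replicate 1 or without replicate 2.

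In wildtype liver 9 of the 10 genes were called lower at 2 weeks than at E17.5, where 37.0% of the 13369 genes tested were called lower. The size of the fall was far from uniform. Dlk1 fell by 8.12 on the log2 scale (SE 0.19), Meg3 fell by 4.59 (SE 0.16), Grb10 fell by 3.74 (SE 0.11), Cdkn1c fell by 2.86 (SE 0.12) and Plagl1 fell by 2.59 (SE 0.12). Mest fell by 1.83 (SE 0.11), Igf2r fell by 1.53 (SE 0.14), Peg3 fell by 1.08 (SE 0.24) and Igf2 fell by 0.95 (SE 0.14). The adjusted p in edgeR was at most 0.00144, the value for Peg3, for these genes other than Igf2. Leaving out wildtype E17.5 replicate 1 or replicate 2 moved no gene of the 10 by more than 0.07, and 9 were called lower each time. The fall of Igf2 shares the 2-week wildtype libraries with the contrast on which Igf2 was chosen, so its values and its call are a description. This fall was the smallest of these 9. At 2 weeks wildtype liver still had 40.5% of the fetal Igf2 mean in RPKM, a share that lacks the TMM scaling behind the fold change.

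H19 was the exception in wildtype liver. Its log2 fold change was -0.27 (SE 0.16) with an edgeR adjusted p of 0.159, and it was not called. H19 was chosen on a contrast that uses the same 2-week wildtype libraries. Its values here, p-values included, are therefore a description. On the RPKM scale its 2-week libraries all lay below the fetal libraries, as 48.0% of all genes did, at 65.1% of the fetal mean, whereas after TMM scaling they overlapped. This depends on the scaling. With library totals the median of all genes moved by -0.36 on the log2 scale in wildtype and by -0.22 in Stab1-/- liver, and H19 then had a log2 fold change of -0.62 and an adjusted p of 0.00515. H19 was also called in both fits to RPKM and without 2-week replicate 1 (-0.38, adjusted p = 0.0480), and its adjusted p ranged from 0.00515 to 0.391 over the 15 alternatives.

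In Stab1-/- liver all 10 genes were lower at 2 weeks than at E17.5, where 36.8% of the 13433 genes tested were called lower. For Igf2 and H19, given as a description, the log2 fold changes were -4.20 (SE 0.18) and -2.19 (SE 0.12). Among the other 8, Dlk1 fell by 9.68 (SE 0.20), Meg3 fell by 5.56 (SE 0.29), Grb10 fell by 4.45 (SE 0.13), Cdkn1c fell by 3.97 (SE 0.16) and Plagl1 fell by 3.08 (SE 0.13). Igf2r fell by 2.29 (SE 0.14), Mest fell by 2.26 (SE 0.12) and Peg3 fell by 1.68 (SE 0.22). The adjusted p in edgeR was at most 3.95e-05 for these 8. The order of the genes shared by both genotypes was Dlk1, Meg3, Grb10, Cdkn1c and Plagl1 from the largest fall downwards, and Igf2 moved from among the smallest falls in wildtype to between Grb10 and Cdkn1c in Stab1-/- liver.

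**Figure D4:**
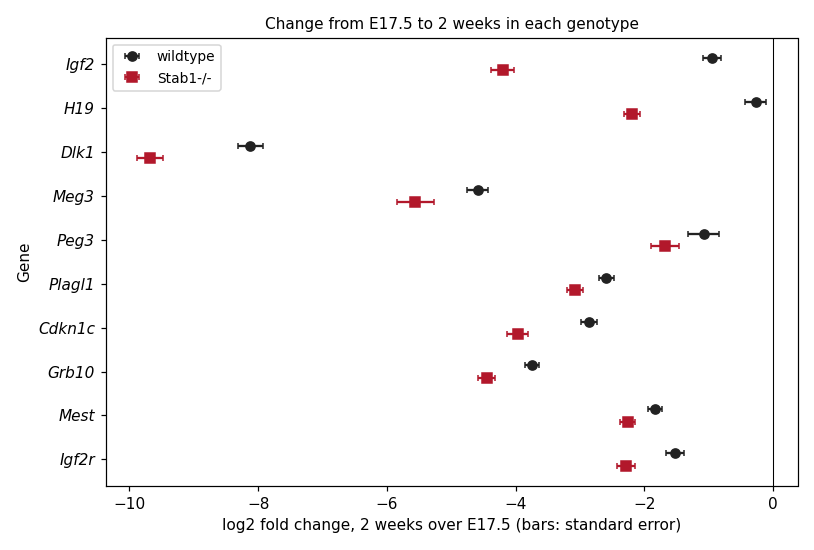
log2 fold change from E17.5 to 2 weeks for the 10 genes, with circles for wildtype, squares for Stab1-/- and bars for the standard error. Each gene lay further to the left in Stab1-/- liver, by the widest margin for Igf2 (-0.95 in wildtype, -4.20 in Stab1-/-) and by narrow margins for Mest (-1.83 and -2.26) and Plagl1 (-2.59 and -3.08).

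As a share of the fetal mean in RPKM, wildtype and Stab1-/- liver at 2 weeks kept 40.5% and 4.68% of Igf2 and 65.1% and 18.9% of H19. For Cdkn1c the shares were 10.7% and 5.48%, and for Meg3 they were 3.24% and 1.81%. The shares were closer for Igf2r (27.0% and 17.4%), Peg3 (36.7% and 27.0%), Grb10 (5.82% and 3.94%) and Mest (22.0% and 17.9%). Plagl1 was 7.71 times lower at 2 weeks than in the fetus in wildtype and 9.90 times lower in Stab1-/- liver. Dlk1 kept 0.278% and 0.103%. These RPKM values lack TMM scaling. With library totals the median of all genes moved by -0.36 on the log2 scale in wildtype and by -0.22 in Stab1-/- liver, so the shares carry an unequal offset.

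The difference between the genotypes' falls was estimated in a fit to all 15 libraries and is given as a description. It was -3.23 (SE 0.22) for Igf2, -1.90 (SE 0.21) for H19, -1.55 (SE 0.31) for Dlk1 and -1.08 (SE 0.20) for Cdkn1c, on the log2 scale. It was -0.95 (SE 0.33) for Meg3, -0.75 (SE 0.20) for Igf2r, -0.68 (SE 0.15) for Grb10, -0.58 (SE 0.37) for Peg3, -0.47 (SE 0.17) for Plagl1 and -0.41 (SE 0.16) for Mest. All 10 were under 0, as 49.4% of the 13885 genes tested were, and 5 were called (Igf2, H19, Dlk1, Cdkn1c and Grb10), where 1.01% of all genes were called lower. This difference was known when Igf2 and H19 were chosen, so nothing is read from the count. Without wildtype E17.5 replicate 1 or replicate 2 no value moved by more than 0.08. The count of 5 fell to 3 without wildtype E17.5 replicate 1, which carried muscle transcripts, and to 2 without replicate 2, which carried pancreas transcripts. It also fell to 2 without Stab1-/- E17.5 replicate 1, the library high in biliary and mesenchymal markers, and to 3 without Stab1-/- 2-week replicate 1 or wildtype 2-week replicate 3. Calls over all genes, in either direction, fell in the same fits, from 251 to 58, 30, 31, 45 and 87 in the order given. The part of the muscle, pancreas, biliary and mesenchymal transcripts in these counts was not tested.

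Other imprinted genes were examined in the same 2-week contrast. Of 59 listed, 33 were tested, 23 of them had a log2 fold change under 0, and the median was -0.13. None was called higher and 2 were called lower, Rian and Slc22a3, where 1.74% of all genes tested were called lower. Slc22a3, an organic cation transporter gene in the Igf2r domain, was 2.21, 2.07, 1.43 and 1.87 RPKM in wildtype and 0.666, 0.756, 0.710 and 0.880 RPKM in Stab1-/- liver. Its log2 fold change was -1.41 (SE 0.19, edgeR adjusted p = 0.00380), on 23 to 30 reads in each Stab1-/- library. Slc22a3 rose after birth in wildtype liver, by 2.62 (SE 0.21) on the log2 scale, and in Stab1-/- liver, by 1.01 (SE 0.25). Its course was thus opposite to that of the 10 genes.

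**Figure D5:**
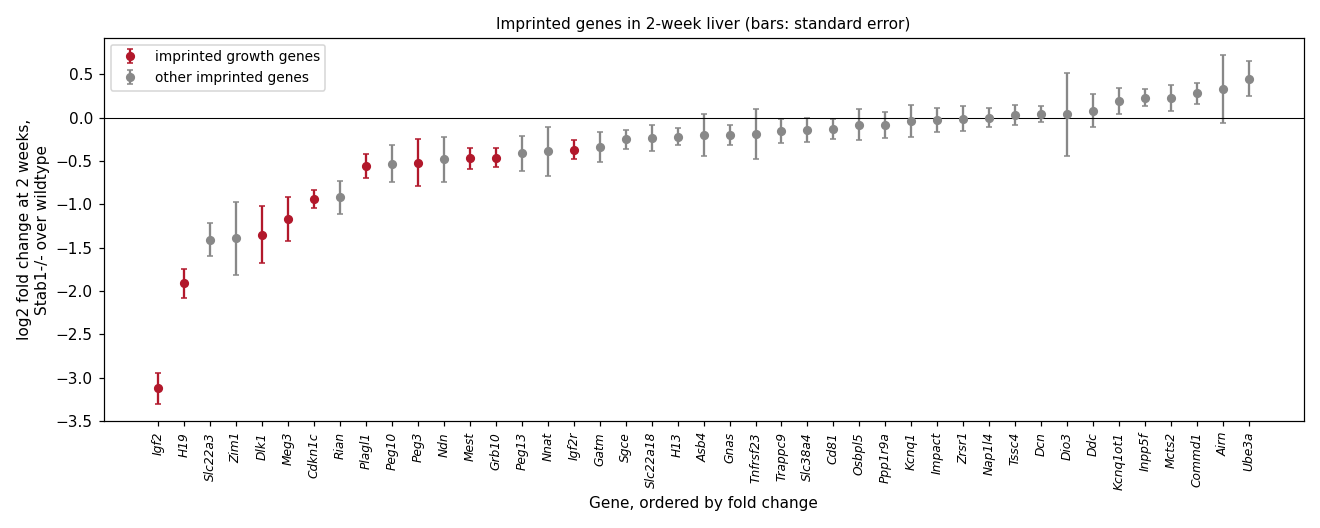
log2 fold change of Stab1-/- over wildtype liver at 2 weeks for the 10 genes and the 33 other imprinted genes tested, ordered by fold change, with bars for the standard error. Igf2 and H19 stand lowest, Slc22a3 (-1.41) and Zim1 (-1.39, SE 0.42, not called) come next, and the other imprinted genes run up to 0.45 for Ube3a.

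Between the ages the other imprinted genes went both ways. In wildtype liver 20 of the 39 tested were called lower and 9 higher, with a median of -0.31, where 37.0% of all genes were called lower and 34.9% higher. Rian fell by 4.98 (SE 0.15) and Peg10, a retrotransposon-derived gene of placental growth, fell by 3.63 (SE 0.15). In Stab1-/- liver 19 of 42 were called lower and 12 higher, with a median of -0.43, against 36.8% and 35.7% of all genes, where Rian fell by 5.83 (SE 0.21) and Peg10 fell by 4.26 (SE 0.19). The falls of Rian and Peg10 differed between genotypes by -0.82 (SE 0.25, edgeR adjusted p = 0.0843) and -0.60 (SE 0.26, edgeR adjusted p = 0.178), and neither passed the test. Of 29 genes that neighbour the 10, 19 were tested at 2 weeks and again only Rian and Slc22a3 were called, both lower. Of all genes tested, 1.74% were called lower, and the median of the list was 0.00.

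Airn, the non-coding RNA that runs antisense across Igf2r, was 1.01 to 3.03 RPKM in Stab1-/- and 0.740 to 1.73 RPKM in wildtype liver at 2 weeks, and did not pass the test (log2 fold change 0.33, SE 0.39, edgeR adjusted p = 0.640). Whether counting used strand was not given in the sources used here, so reads from Igf2r and Airn, and from Igf2 and its antisense RNA Igf2os, cannot be told apart where they overlap. Igf2os was counted at 62, 72, 61 and 10 reads in 2-week wildtype libraries and at 1, 2, 8 and 4 reads in 2-week Stab1-/- libraries. The lowest wildtype count was in replicate 4, the library that was also lowest for Igf2.

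A fetal programme of growth regulators outside the imprinted genes fell after birth in both genotypes. Of 11 such genes, 10 were called lower in wildtype and 11 in Stab1-/- liver, with medians of -2.26 and -2.32, where 37.0% and 36.8% of all genes tested were called lower. They include Igf2bp1, an RNA-binding protein that binds Igf2 transcripts, which fell by 7.15 (SE 0.31) in wildtype and fell by 7.42 (SE 0.31) in Stab1-/- liver, and Lin28b, the repressor of let-7 microRNAs, which fell by 7.22 (SE 0.34) and fell by 6.77 (SE 0.39). Of the 7 tested at 2 weeks none was called between the genotypes, with a median of -0.03, where 2.67% of all genes tested were called. None was called for the difference between falls, where 1.81% of all genes tested were called.

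Of the postnatal repressors of fetal liver genes, Zhx2 and Zhx3 were among those called higher after birth in both genotypes. Of all genes tested, 34.9% were called higher in wildtype and 35.7% in Stab1-/- liver. Zhx2, the repressor of Afp and H19 in adult mouse liver, rose by 1.70 (SE 0.16) in wildtype and 1.46 (SE 0.18) in Stab1-/- liver. In 2-week liver it was 1.89 to 2.29 RPKM in wildtype and 1.82 to 2.52 RPKM in Stab1-/- liver, and did not pass the test (log2 fold change -0.16, SE 0.15, edgeR adjusted p = 0.533). Zbtb20, which also represses Afp, rose by 0.90 (SE 0.20, edgeR adjusted p = 0.00165) in wildtype liver. In Stab1-/- liver its log2 fold change of 0.55 (SE 0.29, edgeR adjusted p = 0.107) did not pass the test. At 2 weeks it was 0.776 to 1.12 RPKM in wildtype and 0.569 to 1.02 RPKM in Stab1-/- liver (log2 fold change -0.30, SE 0.22, edgeR adjusted p = 0.430).

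Of the genes these repressors act on, Afp was lower in Stab1-/- liver at 2 weeks, at 29.0, 28.5, 31.7 and 19.5 RPKM against 134, 141, 137 and 35.8 RPKM in wildtype liver, and the groups did not overlap. Its log2 fold change was -2.13 (SE 0.33, edgeR adjusted p = 0.00746). Gpc3, a fetal glypican of hepatocytes, was 17.3 to 29.3 RPKM in Stab1-/- and 31.4 to 37.2 RPKM in wildtype liver (log2 fold change -0.60, SE 0.15, edgeR adjusted p = 0.0581) and did not pass the test. At E17.5 Afp stood at 17620 to 23183 RPKM over both genotypes. The difference between falls was called for both, at -2.32 (SE 0.41, edgeR adjusted p = 0.0187) for Afp and -0.96 (SE 0.20, edgeR adjusted p = 0.0307) for Gpc3. The call for Gpc3 was lost when any of 5 single libraries was left out, wildtype E17.5 replicates 1 and 2 among them, with an adjusted p of up to 0.0739. Lpl, another listed target, went the other way and was called higher after birth in both genotypes. At 2 weeks its Stab1-/- mean was 112% of the wildtype mean in RPKM, and it was not called between the genotypes.

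Igf1, the growth factor that takes over from Igf2 after birth, rose by 5.01 (SE 0.21) in wildtype and by 5.68 (SE 0.19) in Stab1-/- liver. At 2 weeks it was 112 to 210 RPKM in wildtype and 169 to 262 RPKM in Stab1-/- liver, which overlapped (log2 fold change 0.31, SE 0.17, edgeR adjusted p = 0.302). Igf1r, the receptor that both factors use, fell by 1.86 (SE 0.12) in wildtype and fell by 2.03 (SE 0.11) in Stab1-/- liver, with an edgeR adjusted p of 0.256 for the genotypes at 2 weeks. Of 18 genes of the IGF and insulin axis, 16 were tested at 2 weeks and none was called, where 2.67% of all genes tested were called. The median of this list was -0.27. At E17.5 Irs2, a docking protein of insulin signalling, was higher in Stab1-/- liver (log2 fold change 0.60, SE 0.10, edgeR adjusted p = 0.0474). It was the only gene of this list called, where 0.366% of all genes tested were called. That call was lost in 13 of 17 alternatives, including 6 of the 7 fits that left out a library, where the adjusted p was up to 0.162. At 2 weeks the log2 fold change of Irs2 was -0.85 (SE 0.21, edgeR adjusted p = 0.0510). Irs2 fell by 0.94 (SE 0.15) after birth in wildtype and fell by 2.38 (SE 0.18) in Stab1-/- liver. It was the only gene of the list called for the difference between falls (-1.42, SE 0.25, edgeR adjusted p = 0.0180), where 1.81% of all genes were called. Its adjusted p was at most 0.0481 over 22 alternatives.

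Of 16 genes that keep imprints or methylate DNA, 14 were tested at 2 weeks and none was called, where 2.67% of all genes tested were called. The median of these genes was -0.15. In wildtype liver 9 of 14 were called lower after birth and 1 higher, where 37.0% of all genes tested were called lower and 34.9% higher. Eed, a Polycomb subunit, was the only one called for the difference between falls (0.71, SE 0.15, edgeR adjusted p = 0.0338), with log2 fold changes after birth of -0.69 (SE 0.10) in wildtype and 0.00 (SE 0.12) in Stab1-/- liver. That call was lost in 8 of the 15 fits that left out a library, with an adjusted p of up to 0.0945. Of all genes tested, 1.81% were called for the difference between falls.

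Over the 15 libraries the gene whose log2 level was most like that of Igf2 was H19, with Pearson's r = 0.989. Ppfia4 (r = 0.952), Trerf1 (r = 0.951), Idh2 (r = 0.950) and Arhgef17 (r = 0.948) came next. For H19 the genes after Igf2 were Ppfia4 (r = 0.951), Ajuba (r = 0.941), Igf2os (r = 0.940) and Aim2 (r = 0.933). Among the 10 genes, Cdkn1c followed H19 with r = 0.877 against Igf2, and Peg3 was lowest with r = 0.825. These values describe 15 points in 4 groups that share age and genotype, and most of each r is the difference between groups. That difference includes the one on which Igf2 and H19 were both chosen, so nothing is read from the r between them.

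Within groups the likeness was looser. Over the 15 deviations from the group means, Igf2 and H19 had r = 0.659, Igf2 and Grb10 r = 0.692, and Igf2 and Meg3 r = 0.037. The genes most like Igf2 were Abca1 (r = 0.888) and Rnf166 (r = 0.886), whereas Grb10 took rank 141 and H19 rank 219. Among the genes most like H19, Igf2 took rank 1431. H19 had r = 0.953 with Prkrip1 and 0.949 with Slc40a1, the iron exporter ferroportin, which ranked ahead of every imprinted gene. The same libraries and library totals enter all of these values.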

How the data were processed

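Liver RNA of 15 mice or fetuses was sequenced by the authors, and groups and replicate numbers were taken from the sample labels. The authors deposited raw counts, each a whole number of reads mapped to a single place and assigned to a gene. The deposited RPKM values are these counts per kilobase of listed length and per 1000000 reads on genes, and the deposited percent of each gene model covered by reads was used only to describe depth. Aligner, counting program, genome build and use of strand were not given in the sources used here.

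The quasi-likelihood test of edgeR 4.0.16 (R 4.3.3) was run two-sided on the counts, after TMM scaling and the filterByExpr filter set to min.count 10 and min.total.count 15. Adjusted p is Benjamini-Hochberg over all genes tested, and genes under 0.05 are called. Each age or genotype was fitted on its own libraries, and the difference between falls on all 15. SE is the fold change divided by the square root of F. Whether replicates came from separate litters was not stated, so p-values measure the spread between these samples. Comparisons that share libraries are not independent: the 2-week contrast and the change in wildtype share the wildtype 2-week libraries.

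The alternatives were DESeq2 1.42.0, limma 3.58.1 on log2(RPKM + 0.1) and log2(RPKM + 1), other scaling, no filter, GC-content offsets, the replicate number as a block, all libraries in one fit and leaving out each library. The fits, other than those leaving out a library, were tested on simulated counts with 200 changed genes. With edgeR and TMM scaling 199 or 200 were recovered in each comparison, beside 7 to 21 false calls. That recovery holds only for the sizes of change and the read levels that were simulated. Power for smaller changes, or for genes with fewer reads, was not tested.

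The 10 genes and all gene lists were chosen with earlier results of these data known. Named genes are the 10, 8 regulators and targets named in all comparisons (Stab1, Zhx2, Zbtb20, Afp, Gpc3, Igf1, Igf1r and Airn), up to 5 called genes of each list with the smallest p in each comparison, and the 5 genes most like Igf2 and H19. Ube3a was named after its value was seen. Of 150 listed genes 145 were found in the table. Sequences are from RefSeq tables of GRCm38.p6, matched by symbol.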

Additional observations from a re-analysis of the deposited data

Results flagged for a closer look

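In the difference between the genotypes' falls from E17.5 to 2 weeks, 5 of the 10 genes passed the threshold. Of the 13885 genes tested, 1.01% were called lower. The values on the log2 scale were -3.23 for Igf2, -1.90 for H19, -1.55 for Dlk1, -1.08 for Cdkn1c and -0.68 for Grb10. Each was a larger fall in Stab1-/- liver. The count of 5 ranged from 2 to 6 when single libraries were left out. Igf2 and H19 were chosen with this difference known. 2 single libraries stood apart from the other 3 of their group. Plagl1 was 2.77 RPKM in 2-week Stab1-/- replicate 3, against 2.20 RPKM in the nearest library. Mest was 22.6 RPKM in 2-week wildtype replicate 1, against 17.4 RPKM in the nearest library. Of 30 groups of 4 libraries examined, 2 held such a library, and chance gives about 1 in 20.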

How the results depend on the processing

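The number of the 10 genes called lower at 2 weeks, 5 as reported, was 9 with the replicate number as a block, 9 in DESeq2, 8 with all 15 libraries in one fit and 3 in either limma fit. Igf2 and H19 were chosen on this contrast, so these counts are a description. Calls over all genes moved too. As reported, 221 of 12716 genes were called lower. With the block 539 of 12716 were, in DESeq2 441 of 17882 and in one fit 387 of 13885. In limma on log2(RPKM + 0.1) and log2(RPKM + 1), 99 and 109 of 12716 genes were called lower. At E17.5 DESeq2 called 1 member higher where the reported count was 0, among 130 of 18730 genes called higher. Depth limits Dlk1 and Igf2os at 2 weeks, with at most 12 and 8 reads in a Stab1-/- library.

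The number of genes called at 2 weeks, 340 as reported, was 861 in DESeq2, 219 in limma on log2(RPKM + 0.1), 703 in one fit of all libraries, 1181 with the replicate block and 749 with GC-content offsets and the block. At E17.5 the reported 49 became 235 in DESeq2 and 23 with the replicate block. For the difference between falls the reported 251 became 1058 in DESeq2, 440 in limma on log2(RPKM + 1) and 1088 with the replicate block. Lower genes made up 65.0% of calls at 2 weeks and 46.3% with library totals, and 51.5% and 68.8% for age in wildtype liver. Same-numbered libraries did not deviate together throughout (r from -0.012 to 0.166 at 2 weeks and from -0.178 to -0.027 at E17.5), so the numbers were not taken as pairs.

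Leaving out single libraries gave 116 to 648 called genes and 3 to 7 of the 10 genes at 2 weeks, 27 to 46 and 0 at E17.5, and 30 to 684 and 2 to 6 for the difference between falls. In wildtype liver it gave 9219 to 9622 genes and 9 or 10 of the 10, and in Stab1-/- liver 9233 to 9533 genes and 10. The E17.5 level of Stab1-/- relative to wildtype liver was 97.2% for H19 and 114% for Grb10 in RPKM, and 100% and 118% in TMM-scaled counts.

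The change with age in wildtype liver turned sign for Idh2 (-0.07 with library totals and in both limma fits) and for Rnf166 (-0.34 with library totals, -0.35 and -0.32 in limma on log2(RPKM + 0.1) and log2(RPKM + 1)). These fits lack the composition factors that moved the median of all genes. The change of Cela2a in Stab1-/- liver, -0.04 as reported, ranged from -0.62 to 4.53 over fits that left out a library, turning sign without E17.5 replicate 3, and the cause was not tested.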
